A study of Mus musculus with 6 samples.

Results

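AP-1 is a family of dimeric transcription factors, and the 10 genes described here encode subunits of it: Fos, Fosb, Fosl1, Fosl2, Jun, Junb, Jund, Atf3, Maff and Batf3. They were taken by symbol from a deposited table of 54532 genes, in which each had its own row. The study sequenced RNA from 6 libraries labelled as mouse lung, 3 from mice aged 3 months (labelled young) and 3 from mice aged 18 months (labelled aged), with no treatment, strain or sex in the labels. The labels do not tie a library to an animal, so p-values measure only how far these libraries scatter, which may be technical scatter. Values are FPKM, fragment counts scaled to gene length and a library size. A gene that rose or was higher stood above the young label in the libraries labelled aged, and the opposite holds for a gene that fell or was lower.

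Every AP-1 subunit has a basic region that contacts DNA and a leucine zipper that pairs it with a partner. Jun proteins pair with each other and with Fos proteins, whereas Fos proteins need a Jun partner to bind DNA. Fos, Fosb, Jun, Junb and Atf3 are classic immediate early genes, switched on within minutes of growth factor or stress signals, while Fosl1 and Fosl2 follow more slowly and Jund is present in many resting cells. In lung, AP-1 is known for its part in injury, inflammation and smoke responses. Atf3, Maff and Batf3 are relatives: Atf3 pairs with Jun proteins, Batf3 competes with Fos for Jun, and Maff is a small Maf protein without an activation domain.

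The contents of the libraries did not match the tissue label. Of the markers checked, 4 of 5 for alveolar type 2 cells, 3 of 3 for club cells, 2 of 3 for ciliated cells, 5 of 5 for endothelial cells, 3 of 5 for leukocytes, 3 of 3 for red cells and 4 of 4 for smooth muscle stayed below 1 FPKM in every library. The highest value was 0.112 FPKM for the surfactant gene Sftpc and 0.0953 FPKM for Ptprc (CD45 of leukocytes). In contrast, 6 of 8 fibroblast markers never fell under 10 FPKM, nor did 2 of 5 alveolar type 1 markers, Aqp5 and Pdpn. The other 2 fibroblast markers, Dcn and Lum, stayed below 1 FPKM. The 5 leukocyte markers summed to 10.3 to 12.7 FPKM in the libraries labelled young and to 34.9 to 35.4 FPKM in those labelled aged, nearly all of it from Cd68 and Lyz2. The fibroblast markers summed to 1167 to 1197 and 924 to 961 FPKM, and the 5 alveolar type 1 markers to 104 to 110 and 178 to 196 FPKM. Their part in the results below was not tested. In bulk RNA, fewer cells of a type and less RNA per cell cannot be told apart. Kidney tubule transcripts were present in young replicates 1 and 3, where Kap stood at 116 and 21.9 FPKM against 0 in the other 4 libraries, and the 8 kidney markers together did not exceed 1.76 FPKM in those 4. Values without both libraries are given for several AP-1 genes, among them those whose calls end, and the lists whose counts move most are named. Reads recovered from the FPKM values numbered 16649061 to 17456715 per library.

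The AP-1 genes changed in both directions, and by FPKM as deposited a different member led each family in the 2 groups. Fosl1, Junb, Jun, Fos, Maff and Atf3 rose, Jund and Fosl2 fell, Fosb did not pass the test, and Batf3 was too low to be tested. By limma, 6 of the 9 tested genes were higher at an adjusted p under 0.05, where 27.7% of all 15197 tested genes were higher, and 2 were lower, where 32.3% of all were lower. Atf3 is among the 6, although it met the filter on low values mainly through its higher group, and without that filter 5 genes were higher. Without young replicates 1 and 3, 4 were higher, since Fos and Atf3 no longer passed, and 2 were lower. The groups did not overlap for the 9 tested genes, against 66.9% of all tested genes, and they overlapped for the untested Batf3. In 7 of the 9, Atf3 again among them, every library labelled aged lay above every library labelled young, against 31.3% of all tested genes. In 2 every library labelled aged lay below, against 35.6%. The median log2 fold change of the 9 genes was 0.33, which is the value of Atf3, and that of all tested genes -0.03. Since 60.0% of all tested genes were called, a call alone does not set a gene apart in these libraries.

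**Figure D1:**
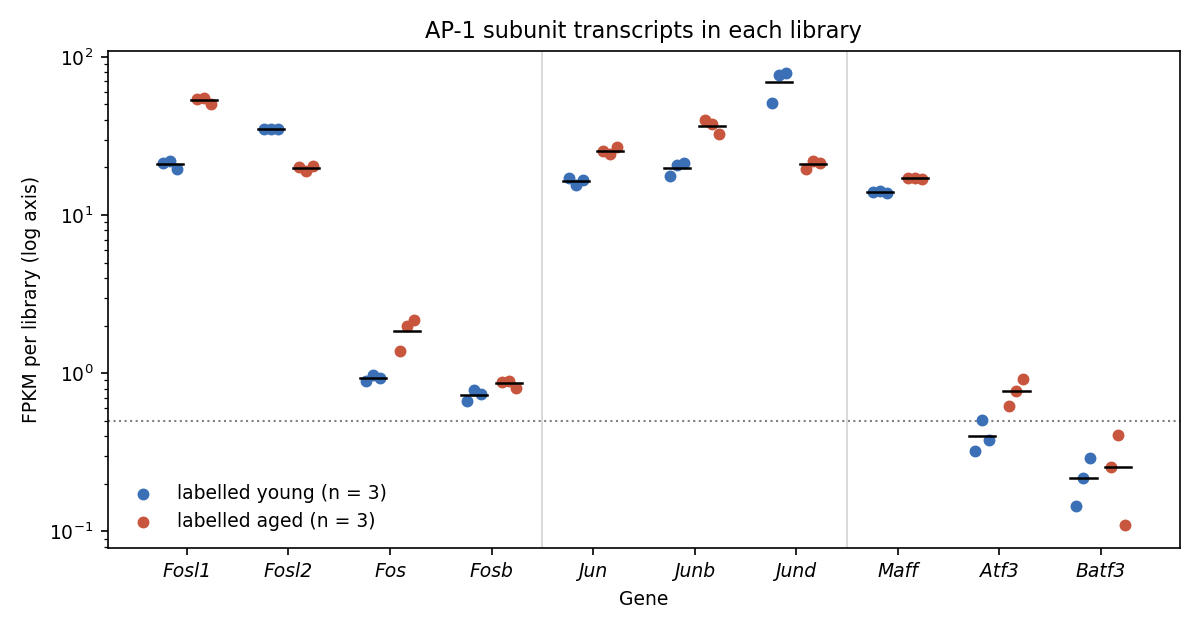
FPKM of the 10 AP-1 genes in each library on a log axis, with points for the 3 libraries labelled young and the 3 labelled aged, bars at the group means and a dotted line at 0.5 FPKM, the level used by the filter. Fosl1 and Jund trade places, from 21.03 and 69.0 FPKM in the libraries labelled young to 53.3 and 20.9 FPKM in those labelled aged. Fosb, Atf3 and Batf3 stay under 1 FPKM.

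The start regions of 5 of the 6 genes that rose are shown because several early response genes are known to be driven by cyclic AMP response elements (CRE, TGACGTCA, with the core TGACG), by AP-1 sites (TGACTCA and the longer TGACATCA), by CArG boxes that bind serum response factor and by MEF2 boxes. RefSeq windows (GRCm38.p6) of 300 bases around a start site were matched by symbol for 9 of the 10 genes, all but Fosl1, and gave 11 windows, 3 of them of Maff. The 120 bases before the start site are printed, for Maff from the window that holds a CRE, 5′ to 3′ on the strand of the gene, with matches to these motifs on either strand in capitals. They lie at chr12:85473770-85473889 for Fos (plus strand), chr4:95052223-95052342 for Jun (minus), chr8:84978749-84978868 for Junb (minus), chr1:191183334-191183453 for Atf3 (minus) and chr15:79347400-79347519 for Maff (plus). The start site is the deposited gene start for Fos and Jun, lies 30 bases upstream of it for Junb, and lies inside the gene for Maff (899 bases in) and Atf3 (34706 bases in).
Fos: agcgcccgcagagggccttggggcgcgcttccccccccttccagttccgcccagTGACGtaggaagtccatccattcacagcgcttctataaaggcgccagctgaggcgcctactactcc
Jun: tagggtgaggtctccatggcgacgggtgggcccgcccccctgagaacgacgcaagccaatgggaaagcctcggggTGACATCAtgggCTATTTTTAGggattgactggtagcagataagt
Junb: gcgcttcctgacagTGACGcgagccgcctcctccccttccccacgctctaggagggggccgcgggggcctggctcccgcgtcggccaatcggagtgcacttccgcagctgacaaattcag
Atf3: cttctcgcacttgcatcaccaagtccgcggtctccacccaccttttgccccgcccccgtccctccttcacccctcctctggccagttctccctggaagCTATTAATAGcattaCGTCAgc
Maff: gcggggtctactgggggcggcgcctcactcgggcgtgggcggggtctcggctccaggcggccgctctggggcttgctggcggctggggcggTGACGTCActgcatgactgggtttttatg

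Within the full windows, the core TGACG was present in Fos, Fosb, Junb, Atf3 and Maff, 5 of the 9 genes, and in 20.8% of all 32851 RefSeq windows. These shares are per window, and Maff, with 3 windows, had more chances of a match than a gene with 1. The whole CRE TGACGTCA, which contains the core on both strands, was present in Maff alone of the 9, 29 bases before that start site, and in 1.79% of all windows. The long AP-1 site TGACATCA lay 45 bases before the start of Jun and, in another Maff window, again 45 bases before a start, against 3.62% of all windows. A MEF2 box was found in Jun and Atf3 and in 3.19% of all windows. No window of the 9 genes held TGACTCA (5.20% of all windows) or a CArG box (1.63%). A window reaches only 250 bases before its start site and 50 bases from it on, so sites farther out were not searched. The start site of the Jund window lies 1210 bases before the deposited gene, outside it, and the 120 bases before the start in the Fosl2 window lie within an annotated exon, so neither is shown and the windows do not compare genes that rose with genes that fell. A match describes letters and is not evidence of binding.

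Fosl1 encodes Fra-1, a Fos protein without the strong activation domain of c-Fos that drives migration and protease genes in many dividing and transformed cells. Its gene lies on chromosome 19, 5447703 to 5455945 (ENSMUSG00000024912), plus strand (mm10). Fosl1 stood at 21.4, 22.1 and 19.6 FPKM in the libraries labelled young and at 54.1, 55.0 and 50.6 FPKM in those labelled aged. All libraries labelled aged lay far above all those labelled young. Fosl1 rose 2.53-fold, on 1861 and 4666 recovered reads. By limma on log2(FPKM + 1), the log2 fold change was 1.30 ± 0.05 (SE, n = 3 in each group here and below) at an adjusted p of 7.08e-06. The gene length behind the FPKM was 1707 bases, shorter than the 2033 exonic bases of its GENCODE M21 annotation. Leaving out young replicates 1 and 3 gave a log2 fold change of 1.23 (adjusted p = 0.000995).

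Fosl2 encodes Fra-2, the closest relative of Fra-1, known for its role in bone, fat and fibrosis. The gene occupies chromosome 5, 32135801 to 32157842 (ENSMUSG00000029135), plus strand. Fosl2 was steady within groups, at 35.0, 34.9 and 34.9 FPKM in the libraries labelled young and at 20.1, 19.1 and 20.4 FPKM in those labelled aged. It was thus lower in each library labelled aged. Fosl2 was 1.76-fold lower (limma, -0.79 ± 0.03 SE on the log2 scale, adjusted p = 8.51e-06), and the value was again -0.79 without young replicates 1 and 3 (adjusted p = 0.00185).

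Fos encodes c-Fos, the founding member, which responds to serum and growth factors. The gene lies on chromosome 12, 85473890 to 85477273 (ENSMUSG00000021250), plus strand. Fos was low throughout, at 0.889, 0.980 and 0.936 FPKM in the libraries labelled young and at 1.38, 1.98 and 2.18 FPKM in those labelled aged. Fos rose 1.98-fold as a ratio of mean FPKM (limma, 0.55 ± 0.12 SE on the log2 scale, adjusted p = 0.00615). It rested on 114 and 223 reads, a ratio with exact 95% counting limits of 1.57 and 2.50. Without young replicates 1 and 3 it no longer passed (log2 fold change 0.51, adjusted p = 0.0872).

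Fosb encodes a Fos protein known from stimulated neurons, and a truncated splice form of it is stable for days. Its gene spans chromosome 7, 19302696 to 19310051 (ENSMUSG00000003545), minus strand. Fosb lay at 0.670, 0.784 and 0.742 FPKM in the libraries labelled young and at 0.885, 0.897 and 0.811 FPKM in those labelled aged. The groups were separate by a narrow margin, and the difference missed the threshold (log2 fold change 0.11 with a 95% interval of -0.08 to 0.30, limma adjusted p = 0.290). The table has a single row for the gene, so the full-length and truncated forms were not told apart.

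Together the Fos genes were dominated by Fosl1 and Fosl2 in all 6 libraries. Fosl2 made up 59.4% to 62.1% of the summed FPKM of the Fos genes in the libraries labelled young and Fosl1 34.9% to 37.6%. In the libraries labelled aged Fosl1 made up 68.4% to 71.5% and Fosl2 24.8% to 27.5%. The ratio of Fosl1 to Fosl2 was 0.602 ± 0.0365 (SD, n = 3) in the first group and 2.69 ± 0.201 in the second. Fos and Fosb each stayed under 3% of the family sum in every library. The sum itself was 57.6 ± 1.36 FPKM in the libraries labelled young and 75.8 ± 1.64 FPKM in those labelled aged.

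Jund encodes JunD, the Jun protein of resting cells, which slows proliferation in fibroblasts. The gene has 1 exon on chromosome 8, 70698949 to 70700616 (ENSMUSG00000071076), plus strand. Jund stood at 51.4, 77.0 and 78.6 FPKM in the libraries labelled young and at 19.5, 21.9 and 21.2 FPKM in those labelled aged. The lowest value of the first group belonged to young replicate 1, the library richest in kidney transcripts, and still exceeded all libraries labelled aged. The highest, 78.6 FPKM, belonged to young replicate 3, the other library with kidney transcripts. Jund was 3.31-fold lower, the largest change among the 9 tested genes (limma, -1.66 ± 0.16 SE on the log2 scale, adjusted p = 0.000157). The log2 fold change was -1.85 without young replicate 1 (adjusted p = 2.43e-05) and -1.84 without young replicates 1 and 3 (adjusted p = 0.000762). An antisense gene, Gm11175, lies inside Jund, shares 919 of its 1668 bases and was listed at 0 in every library. The labels do not say whether strand was used in counting or how reads in shared stretches were assigned. The 0 therefore does not show that antisense RNA was absent, and Jund may have been counted on only part of its length.

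Junb encodes JunB, which counters c-Jun in the cell cycle and is itself an early response gene. It occupies chromosome 8, 84974484 to 84978718 (ENSMUSG00000052837), minus strand. Junb stood at 17.6, 20.8 and 21.2 FPKM in the libraries labelled young and at 39.6, 37.8 and 32.5 FPKM in those labelled aged, without overlap. It rose 1.85-fold (limma, 0.85 ± 0.09 SE on the log2 scale, adjusted p = 0.000302). The neighbouring peroxiredoxin gene Prdx2, on the other strand, shares 351 bases with Junb and lay between 37.8 and 42.5 FPKM in both groups.

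Jun encodes c-Jun, the subunit that JNK kinases phosphorylate. Its single exon lies on chromosome 4, 95049034 to 95052222 (ENSMUSG00000052684), minus strand. Jun was at 17.2, 15.6 and 16.7 FPKM in the libraries labelled young and at 25.4, 24.2 and 26.7 FPKM in those labelled aged. Each library labelled aged exceeded each labelled young, and Jun rose 1.54-fold (limma, 0.60 ± 0.05 SE on the log2 scale, adjusted p = 0.000106). Junos, an antisense RNA gene that shares 689 bases with Jun, lay between 1.40 and 1.69 FPKM under the young label and between 5.27 and 6.03 FPKM under the aged label, and rose as well (limma adjusted p = 1.52e-05). No label says whether strand was used in counting, so reads of Jun and Junos in the shared stretch cannot be told apart.

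Among the Jun genes Jund led in the libraries labelled young, with 59.7% to 67.9% of their summed FPKM. It had the lowest FPKM of the 3 in those labelled aged, with 23.0% to 26.4%. Junb held 18.2% to 20.4% in the first group and 40.4% to 46.9% in the second. Jun held 13.7% to 19.9% and 28.8% to 33.2%, respectively. The ratio of Junb to Jund went from 0.294 ± 0.0413 (SD, n = 3) to 1.76 ± 0.253. Genes on the other strand share 919 of the 1668 bases of Jund, 689 of 3189 of Jun and 351 of 2301 of Junb. If reads in shared stretches were not counted, FPKM would be too low, most of all for Jund. The rank of Jund among the 3 within a group is therefore not settled. The summed Jun genes stood at 86.2, 113 and 117 FPKM in the libraries labelled young and at 84.5, 83.9 and 80.5 FPKM in those labelled aged, where young replicate 1 was the lowest of its group and close to the second group. All 10 genes together summed to 159, 187 and 187 FPKM under the young label and to 179, 179 and 172 FPKM under the aged label. The groups overlapped only through young replicate 1, and without it each library labelled aged lay below the others labelled young.

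**Figure D2:**
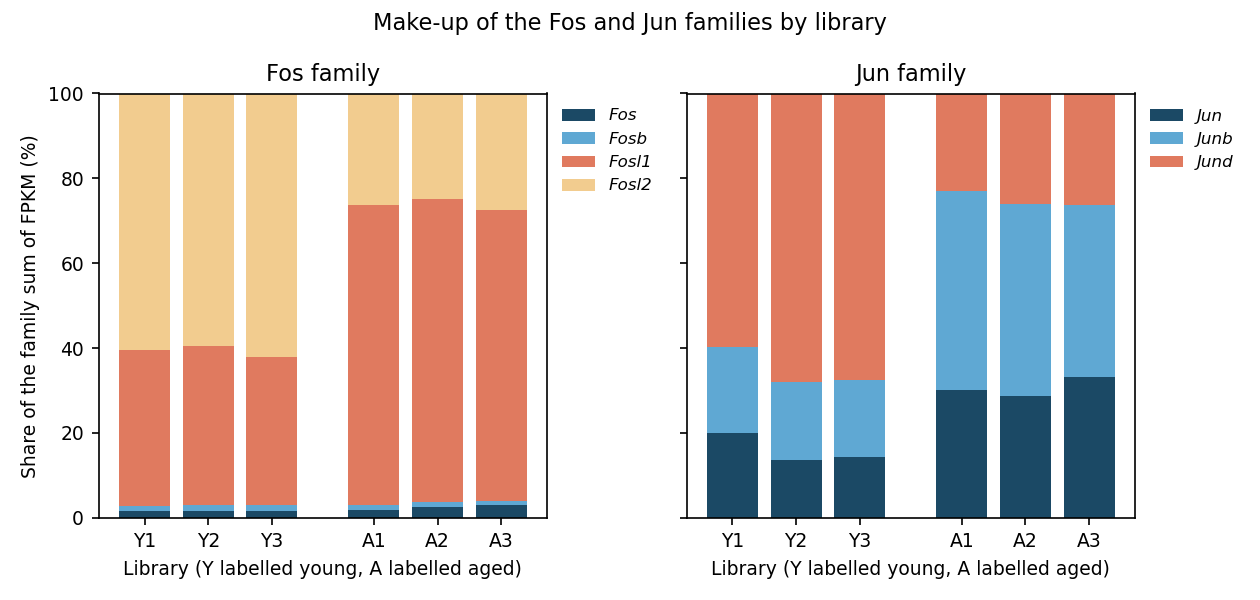
Share of each gene in the summed FPKM of its family, in percent, for the Fos genes (left) and the Jun genes (right), with a bar for each library (Y1 to Y3 labelled young, A1 to A3 labelled aged). Fosl2 and Jund take the largest shares in Y1 to Y3, and Fosl1 and Junb in A1 to A3.

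Maff encodes a small Maf protein that pairs with CNC factors such as Nrf2 as well as with Fos proteins. The gene lies on chromosome 15, 79346621 to 79359076 (ENSMUSG00000042622), plus strand. Maff stood at 13.9, 14.1 and 13.7 FPKM in the libraries labelled young and at 17.1, 17.05 and 16.9 FPKM in those labelled aged. The spread within a group was small next to the difference, and Maff rose 1.22-fold (limma, 0.27 ± 0.03 SE on the log2 scale, adjusted p = 0.000350).

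Atf3 encodes a stress-induced repressor or activator, depending on its partner. The gene spans chromosome 1, 191170296 to 191218039 (ENSMUSG00000026628), minus strand. Atf3 lay at 0.324, 0.508 and 0.377 FPKM in the libraries labelled young and at 0.621, 0.766 and 0.918 FPKM in those labelled aged. It passed the filter on low values with all 3 libraries labelled aged and 1 labelled young, so the higher group alone sufficed for it to be tested. Atf3 rose by log2 0.33 ± 0.11 SE (limma adjusted p = 0.0318), from 45 and 85 reads, and the exact 95% counting limits of their ratio, 1.91, were 1.31 and 2.80. The call was lost without young replicate 1 (adjusted p = 0.0890), young replicate 3 (0.0795), aged replicate 2 (0.0856) or aged replicate 3 (0.106), and without both young replicates 1 and 3 (0.280). It was also lost without the filter on low values (adjusted p = 0.0647) and with a replicate block (0.0520).

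Batf3, a factor needed by cross-presenting dendritic cells, lies on chromosome 1, 191097847 to 191108945 (ENSMUSG00000026630), plus strand. Batf3 stood at 0.145, 0.216 and 0.290 FPKM in the libraries labelled young and at 0.255, 0.406 and 0.109 FPKM in those labelled aged. The groups overlapped, and no library reached the 0.5 FPKM of the filter. It had 18 and 21 reads, and their ratio, 1.18, had exact 95% counting limits of 0.598 and 2.35, so a difference was not detectable at this depth.

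**Figure D3:**
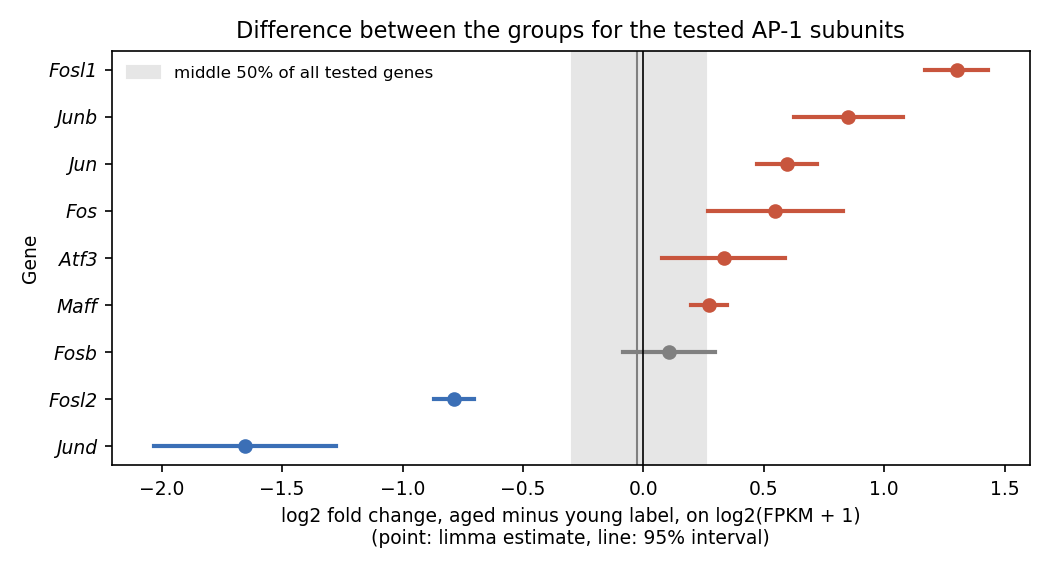
Log2 fold change of the 9 tested AP-1 genes on log2(FPKM + 1), aged minus young label, with limma's 95% interval as a line and the middle 50% of all tested genes as a grey band. The intervals of Fosl1 (1.30), Junb (0.85), Jun (0.60) and Fos (0.55) lie above the band and those of Jund (-1.66) and Fosl2 (-0.79) below it. The points of Atf3 and Maff lie above the band with intervals that reach into it, while the interval of Fosb covers 0.

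The order of the levels differed between the groups, with the limit on shared stretches given above for Jund, Jun and Junb. In the libraries labelled young it ran Jund, Fosl2, Fosl1, Junb, Jun, Maff, Fos, Fosb, Atf3 and Batf3, and Fosl1 and Junb were the neighbours whose values overlapped. In those labelled aged it ran Fosl1, Junb, Jun, Jund, Fosl2, Maff, Fos, Fosb, Atf3 and Batf3, with overlap between Jund and Fosl2 and between Fosb and Atf3. Both groups thus held 6 genes above 10 FPKM and 4 genes below 3 FPKM. The low genes were Fos, Fosb, Atf3 and Batf3, of which the first 3 are immediate early genes.

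Genes with a pattern like that of the largest rise and the largest fall were ranked by the distance between log2(FPKM + 1) values of the 6 libraries, each gene centred on its own mean. Closest to Fosl1 were Bcl2l1, which encodes the survival protein Bcl-xL (distance 0.0852), the homeobox gene Nkx6-3 (0.0956), Siglecg, a sialic acid-binding lectin gene (0.104), and Mfsd1, a membrane transporter gene (0.111). Bcl2l1 went from 12.1 ± 0.721 to 31.7 ± 0.758 FPKM (SD, n = 3). Siglecg rose 8.14-fold, from a mean of 0.261 to 2.12 FPKM, against 2.58-fold to 2.78-fold for the others. The added 1 understates changes of such low genes. Closest to Jund were Krt17, a keratin gene (0.301), Col5a3, a chain of type V collagen (0.401), Fgf11, a fibroblast growth factor gene (0.406), and Dbp, a bZIP factor of the circadian output (0.412). Col5a3 went from 53.8 ± 3.07 to 17.9 ± 0.811 FPKM. Krt17, also low, went from a mean of 2.75 to 0.214 FPKM, 12.8-fold lower, while the others were 3.01-fold to 3.39-fold lower. The ranking rests on 6 libraries in 2 groups.

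Of the other bZIP factors that can pair with AP-1 subunits or compete with them, 21 of 24 were tested, and 2 rose, 9 fell and 10 did not pass the threshold. These are 9.52% higher and 42.9% lower, against 27.7% and 32.3% of all tested genes. The split of higher to lower was 3 to 7 with median centring, where all tested genes split 4988 to 4026. With TPM it was 3 to 9, where all tested genes split 4416 to 4548. In the main fit the median log2 fold change of the list was -0.17. The rises were Ddit3 (CHOP), a factor of the stress response, from 51.6 ± 0.873 to 104 ± 5.92 FPKM (SD, n = 3), and Jdp2, which pairs with Jun proteins and represses AP-1 sites, from 33.8 to 42.5 FPKM, the latter named after its values were seen. Among the falls, Creb5, which can pair with Jun, was 2.55-fold lower at 1.34 ± 0.173 FPKM, Atf7, a relative of Atf2, 1.47-fold lower, Creb1, which binds CREs, 1.43-fold lower, and Batf2, a relative of Batf3, 1.63-fold lower. In the wider bZIP class that the deposited table marks, a grouping chosen after the values were seen, 33 genes other than the AP-1 members were tested, of which 6 (18.2%) were higher and 17 (51.5%) lower, against the same 27.7% and 32.3%.

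In the list of MAP kinases, their activators and the serum response arm, 5 of 26 tested genes rose, 12 fell and 9 did not pass the threshold. These are 19.2% higher and 46.2% lower, against 27.7% and 32.3% of all tested genes. The split of higher to lower was 6 to 8 with median centring, where all tested genes split 4988 to 4026. With TPM it was 6 to 10, where all tested genes split 4416 to 4548. The median log2 fold change of the list was -0.13. Without young replicates 1 and 3, fewer genes of this list were called, as were fewer of all tested genes. Map2k3, which activates p38 kinases, rose 1.89-fold from 23.7 ± 1.13 to 44.7 ± 2.08 FPKM (limma adjusted p = 1.84e-05). Map2k1 (MEK1, which activates ERK) was 1.37-fold lower, at 25.6 ± 0.179 against 35.0 ± 0.155 FPKM. Mapk9, which encodes the Jun kinase JNK2, was 1.45-fold lower, and the ERK-activated kinase genes Rps6ka3 and Rps6ka1 were 1.67-fold and 1.71-fold lower. These are transcript levels, and kinase activity was not measured.

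Other immediate early genes moved in both directions, as the AP-1 genes did. Of 31 tested genes in a list of 35, 16 rose, 6 fell and 9 did not pass the threshold. These are 51.6% higher and 19.4% lower, against 27.7% and 32.3% of all tested genes. Their median log2 fold change was 0.15. The ERK phosphatase genes Dusp4 and Dusp6 rose 4.39-fold, to 47.1 ± 1.64 FPKM, and 3.55-fold, to 24.9 ± 0.957 FPKM. Errfi1, a feedback inhibitor of EGF receptors, rose 4.28-fold to 43.1 ± 4.65 FPKM, and Klf4, a zinc finger factor, rose 3.68-fold. Arc, an early gene best known from neurons, was 3.27-fold lower, at 3.57 ± 0.370 against 11.7 ± 0.857 FPKM.

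Genes described as AP-1 targets were mostly higher. Their list was chosen with earlier results of these data known, so its shares are not independent of those results. Of 22 tested genes in a list of 30, 18 rose, 2 fell and 2 did not pass the threshold. These are 81.8% higher and 9.09% lower, against 27.7% and 32.3% of all tested genes. Their median log2 fold change was 0.74 against -0.03 over all tested genes. Ccnd1 (cyclin D1) rose 2.89-fold from 57.6 ± 1.24 to 167 ± 2.13 FPKM (limma adjusted p = 1.11e-06). Ccl2, a monocyte chemokine gene, rose 2.57-fold to 286 ± 24.2 FPKM, Ereg, an EGF receptor ligand gene, 2.63-fold to 7.32 ± 0.259 FPKM, and Cd44, a hyaluronan receptor gene, 1.91-fold to 51.4 ± 0.986 FPKM. The genes that fell, named after their values were seen, were Vegfa (vascular growth factor), from 86.5 to 47.5 FPKM, and Itga5 (integrin alpha 5), from 40.1 to 26.9 FPKM. The matrix metalloproteinase genes Mmp3, Mmp9, Mmp10 and Mmp13, often cited as AP-1 targets, were too low to be tested in these libraries. All targets on this list also answer to other factors, and whether AP-1 bound them was not measured.

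Of 16 tested genes that control the turnover of AP-1 messages and proteins, 4 rose, 7 fell and 5 did not pass the threshold. These are 25% higher and 43.8% lower, against 27.7% and 32.3% of all tested genes. The split of higher to lower was 4 to 5 with median centring or TPM. All tested genes split 4988 to 4026 with median centring and 4416 to 4548 with TPM. The median log2 fold change of the list was -0.07. Fewer genes of this list, and fewer of all tested genes, were called without young replicates 1 and 3. Zfp36l2, which promotes decay of AU-rich messages, rose 2.34-fold from 24.1 ± 0.528 to 56.5 ± 0.691 FPKM (limma adjusted p = 1.66e-06). Cops5, the JAB1 subunit of the COP9 signalosome, rose 1.27-fold. Hnrnpd, which encodes the AU-rich binding protein AUF1, and Usp28, a deubiquitinase that stabilises c-Jun, were 1.33-fold and 1.46-fold lower. Zfp36, which also promotes decay of AU-rich messages, is on this list and on that of the immediate early genes.

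**Figure D4:**
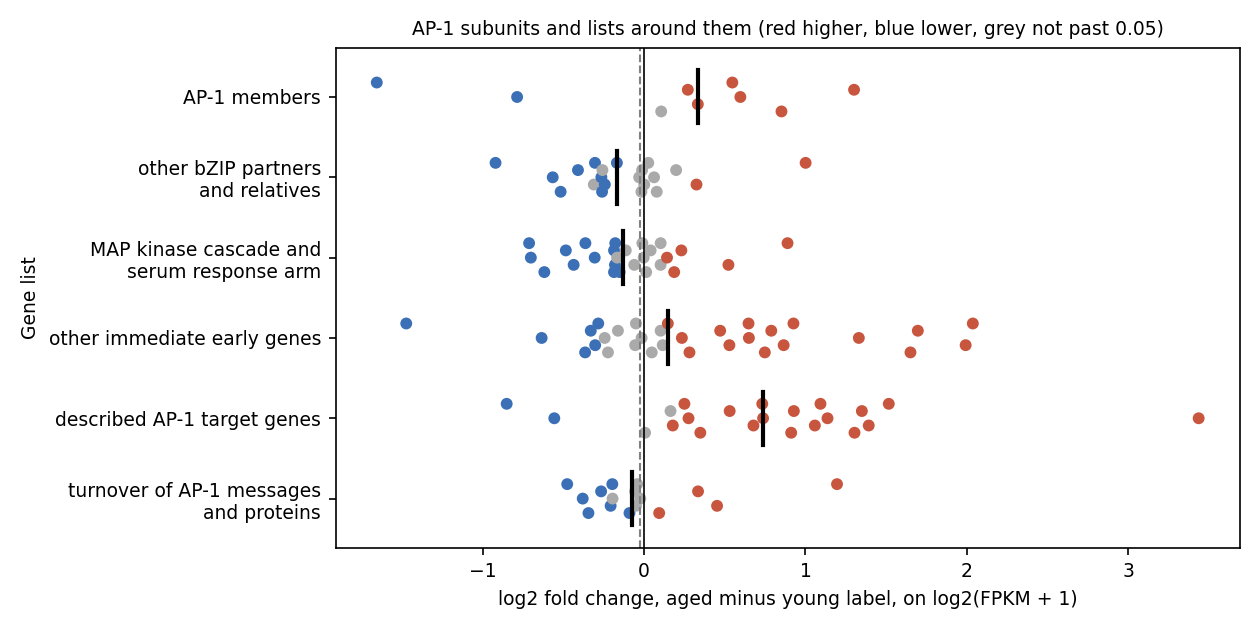
Log2 fold change of each tested gene in the AP-1 set and in 5 lists around it, aged minus young label, with red points higher, blue points lower and grey points not past an adjusted p of 0.05, a black bar at the median of each list and a dashed line at the median of all tested genes. Described AP-1 targets have the highest median, 0.74, and the other bZIP factors the lowest, -0.17. The lists were chosen with earlier results of these data known.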

How the data were processed

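Per the labels' protocols, RNA was extracted with TRIzol and paired-end reads from an Illumina NovaSeq instrument were aligned with HISAT2 2.0.5. The submitters' processing notes name mm10 as the build. No source used here gives the counting program, annotation or strand setting. The authors deposited FPKM values for 54532 genes. Multiplied by gene length, 100% of the values above 0 were whole multiples of 1 step per library within 0.01, so reads were recovered, 16649061 to 17456715 per library. The library size that the step implies was below the recovered reads in each library labelled young (17261039 against 17398134 in replicate 3). It was above them in each labelled aged (17194677 against 16887256 in replicate 1). FPKM thus set the aged label slightly lower than scaling to recovered reads would. Counting intervals cover counting error only.

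Genes with at least 0.5 FPKM in at least 3 libraries were tested on log2(FPKM + 1), which understates changes of low genes, with limma 3.58.1 in R 4.3.3 (mean-variance trend, 2-sided, Benjamini-Hochberg over all 15197 tested genes, threshold 0.05). Folds are ratios of mean FPKM. Replicates differed by more than sampling noise (chi-square per degree of freedom 2.25 to 4.93 within groups). The members and lists were chosen with earlier results of these data known. Genes named from a list are up to 5 with the smallest adjusted p and at least 1 FPKM in the higher group. Some genes that this rule names are not reported here. Others are said to be chosen later, or illustrate a statement. List symbols came from the deposited table, with Ccn1, Ccn2, Mrtfa and Mrtfb matched by older names, and for repeated symbols (Ddit3) the longest row was used. Deposited gene lengths equalled the exonic lengths of GENCODE M21 for 9 of the 10 genes. Start regions are from RefSeq (GRCm38.p6). The fits were tested on simulated reads. Tables and counting limits were made in Python 3.11.15 with scipy 1.17.1 and pandas 2.3.3, and figures with matplotlib 3.10.9.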

Additional observations from a re-analysis of the deposited data

How the results depend on the processing

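Across 18 alternatives, the calls of Fosl1, Fosl2, Jun, Junb, Jund and Maff kept their direction and their side of the threshold. These were pseudocounts of 0.1 and 0.5, dropping the filter, a filter on mean FPKM of 1 (which removes Fosb and Atf3), centring on the median, TPM, limma without its trend or with robust moderation, voom on recovered reads, a replicate block, a threshold of 0.01, leaving out each library and, added after the data were seen, leaving out young replicates 1 and 3 together. With these 2 left out, the lone library labelled young is assumed to vary like those labelled aged. Log2 fold changes ranged over 1.23 to 1.38 for Fosl1, -0.81 to -0.72 for Fosl2, 0.56 to 0.67 for Jun, 0.77 to 0.93 for Junb, -1.85 to -1.55 for Jund and 0.25 to 0.34 for Maff. Fos ranged over 0.46 to 0.98 and lost its call under 1 alternative (adjusted p = 0.0872 without young replicates 1 and 3). Atf3 ranged over 0.23 to 0.95 and lost its call under 8 of 17, with adjusted p of 0.0135 to 0.280 over all settings. Fosb passed under none (lowest adjusted p = 0.0874). The highest values of Fos and Atf3 came from voom, which adds no pseudocount of 1 FPKM. Without a filter, Batf3 had a log2 fold change of 0.04 (adjusted p = 0.781). AP-1 genes called higher numbered 4 to 6 and those called lower 2 in each setting. The MAP kinase list fell from 17 to 10 called genes and the turnover list from 11 to 6 without young replicates 1 and 3, and the cause was not tested. Fewer of all tested genes were called in that setting as well, so the drop was not confined to these lists. Voom called 9511 of 15197 genes, against 9115. The balance over all tested genes depended on the scaling, with 4212 higher and 4903 lower in the main fit but 4988 and 4026 with median centring.

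Replicate numbers are shared between groups, but same-numbered libraries did not deviate together (correlations of 0.0056, -0.0079 and 0.019 over 15197 genes). Only young replicate 3 correlated best with its own number in the other group. The replicate block gave 8441 called genes and an adjusted p of 0.0520 for Atf3, and changed no other call among the AP-1 genes. Negative binomial count models were not run, since the deposited values are FPKM. Depth limits Batf3, Atf3 and Fos, each under 250 reads per group.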
